A study of Mus musculus with 22 samples.

Results

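Keratins 7, 8, 18 and 19 are among the intermediate filament proteins of simple epithelia. Their 4 genes (Krt7, Krt8, Krt18 and Krt19) are described here out of 18193 genes measured on 22 arrays of mouse embryonic stem (ES) cells. The genes were taken by symbol from the array annotation, and where several probe sets carried a symbol the one of highest average was read. They were chosen by their log2 values in earlier results of these arrays, in which they were far higher in control cells without CHIR99021 than in the other arms. The values of the 4 genes in the 3 arms are therefore given as a description and were not tested.

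All cells were Rex1GFPd2 ES cells, a reporter line in which the pluripotency gene Rex1 (Zfp42) drives a short-lived green fluorescent protein, and all were transfected with siRNA and grown with PD0325901 (PD), which blocks the kinase MEK. The YAP/TAZ siRNA arm received 1 of 2 siRNA mixes against the Hippo pathway coactivators YAP and TAZ (genes Yap1 and Wwtr1) and was moved after 24 hours to PD-only medium (8 arrays, 4 per mix). The PD-only control arm received 1 of 2 control siRNAs and the same change of medium (7 arrays, 4 and 3 per siRNA). The 2i control arm received the same control siRNAs and was kept in 2i, which holds PD and CHIR99021 (CHIR), which blocks the kinase GSK3 (7 arrays, 4 and 3). All cultures were harvested 72 hours after transfection. No YAP/TAZ siRNA culture in 2i was analysed here. The loss of CHIR cannot be told apart from the change of medium that went with it. The arrays are called biological replicates in the labels, without saying whether they came from separate days, so p-values measure the spread between these arrays.

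Keratin filaments are built from pairs of a type II keratin (here Krt7 and Krt8) and a type I keratin (here Krt18 and Krt19), and a keratin without a partner is degraded. Krt8 and Krt18 are the first pair made in the mouse embryo and appear in the trophectoderm, the epithelium that surrounds the inner cell mass from which ES cells are derived. Krt7 and Krt19 are made in many of the same epithelia. Desmosomes and linker proteins of the plakin family anchor the filaments at the cell surface.

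The label check came out as the siRNA names say. On the log2 scale of the deposited values, Yap1 lay between 9.67 and 9.91 with YAP/TAZ siRNA (median 9.76), against a median of 11.05 in PD-only control and 10.89 in 2i control, and the arms did not overlap. Wwtr1 lay between 9.18 and 9.41 with YAP/TAZ siRNA, against 10.25 to 10.34 in PD-only control and 9.99 to 10.07 in 2i control. Stem cell identity was checked with 6 markers (Pou5f1, Sox2, Nanog, Zfp42, Esrrb and Tfcp2l1), and each had a mean above the median of all genes in every arm. The difference between the 3′ and 5′ probe sets of Actb, a measure of RNA quality, spanned 0.88 to 1.07 with YAP/TAZ siRNA, 0.66 to 0.75 in PD-only control and 0.87 to 1.19 in 2i control. This value moved with the same arm as the keratins, and the differences of the 4 keratins and of the listed genes were also computed with it as a covariate. The PD-only control arrays did not overlap the other arms in this value, so the covariate and the arm can hardly be told apart. A call can be lost with it while the difference stays, as for Cdh1 (-0.07 without and -0.09 with the covariate, YAP/TAZ siRNA minus PD-only control). Calls kept or lost with the covariate therefore do not show whether RNA quality had a part.

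The sequences upstream of 3 of the 4 genes are shown because these genes moved together on the arrays. They are the 250 bases before the gene start in RefSeq (build GRCm38.p6), 5′ to 3′ on the strand of the gene, with matches to searched motifs in capitals.
Krt7, chr15:101412153-101412402, plus strand: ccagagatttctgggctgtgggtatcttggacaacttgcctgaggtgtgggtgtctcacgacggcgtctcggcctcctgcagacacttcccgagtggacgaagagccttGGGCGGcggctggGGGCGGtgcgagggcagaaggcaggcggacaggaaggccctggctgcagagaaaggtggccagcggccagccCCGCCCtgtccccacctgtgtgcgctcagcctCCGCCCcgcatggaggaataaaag
Krt8, chr15:102004343-102004592, minus strand: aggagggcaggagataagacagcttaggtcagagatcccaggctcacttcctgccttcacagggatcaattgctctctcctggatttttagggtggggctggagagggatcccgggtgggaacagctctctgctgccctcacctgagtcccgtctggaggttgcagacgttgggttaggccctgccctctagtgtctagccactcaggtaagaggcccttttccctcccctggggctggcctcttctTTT
Krt18, chr15:102027966-102028215, plus strand: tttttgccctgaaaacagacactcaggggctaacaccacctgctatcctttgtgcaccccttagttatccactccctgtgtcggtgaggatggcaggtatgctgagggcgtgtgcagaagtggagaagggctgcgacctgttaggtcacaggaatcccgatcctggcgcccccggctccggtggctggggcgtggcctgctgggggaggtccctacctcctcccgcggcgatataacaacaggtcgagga

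The motifs were searched on both strands in the 300 bases of the RefSeq table, which run past the start. They were GGAATG (bound by TEAD factors, the DNA-binding partners of YAP and TAZ), TGANTCA (AP-1), CTTTGA (TCF/LEF factors, the partners of beta-catenin), GGGCGG (the GC box) and TATAAA (the TATA box). The Krt7 window held 4 GC boxes, 2 on each strand, and 35.7% of 32851 promoters in the table held at least 1. The Krt8 window held a TATA box whose first base is the last one printed, and which overlaps a match on the opposite strand that begins 3 bases before the start; 13.6% of promoters held this motif. None of the 5 motifs matched in the Krt18 window. The TEAD, AP-1 and TCF/LEF motifs matched in none of the 3 windows, and were present in 14.7%, 7.81% and 16.0% of promoters. The upstream sequences were 66.0% G and C for Krt7, 58.0% for Krt8 and 60.4% for Krt18, against a median of 52.4% over the table. A search for these letters in a short window says nothing about binding elsewhere in the genes.

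Krt8, the type II keratin of the earliest pair, was far higher in PD-only control than in both other arms. With YAP/TAZ siRNA its log2 values were 7.68, 7.74, 7.6 and 7.63 for mix 1 and 7.56, 7.65, 7.5 and 7.64 for mix 2. In PD-only control they were 13.46, 13.46, 13.39 and 13.42 for siRNA 1 and 13.46, 13.37 and 13.43 for siRNA 2. In 2i control they were 6.74, 6.78, 6.78 and 6.79 for siRNA 1 and 6.64, 6.83 and 6.73 for siRNA 2. The 3 arms did not overlap, with the PD-only control arrays far above the rest and the YAP/TAZ siRNA arrays above every 2i control array. YAP/TAZ siRNA minus PD-only control was -5.80 ± 0.03 (SE of the model), a 55.8-fold difference, and PD-only control minus 2i control was 6.67 ± 0.03, a 102-fold difference. YAP/TAZ siRNA minus 2i control was 0.87 ± 0.03, or 1.83-fold. Of all genes on its array, 59.3% to 61.5% had a value at or below that of Krt8 with YAP/TAZ siRNA, 99.4% to 99.5% in PD-only control and 50.4% to 52.2% in 2i control. These shares describe brightness on the array, not the amount of mRNA.

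Krt18, the type I partner of Krt8 and its neighbour on chromosome 15, had the same order of arms. With YAP/TAZ siRNA the values were 7.9, 7.91, 7.97 and 7.92 for mix 1 and 7.73, 7.94, 7.73 and 7.96 for mix 2. In PD-only control they were 13.5, 13.53, 13.53 and 13.48 for siRNA 1 and 13.56, 13.55 and 13.58 for siRNA 2. In 2i control they were 7.56, 7.6, 7.42 and 7.4 for siRNA 1 and 7.56, 7.57 and 7.39 for siRNA 2. The arms again did not overlap, but the lowest YAP/TAZ siRNA array stood only 0.13 above the highest 2i control array, where for Krt8 this gap was 0.67. The differences were -5.65 ± 0.04 for YAP/TAZ siRNA minus PD-only control (50.4-fold), 6.04 ± 0.04 for PD-only control minus 2i control (65.6-fold) and 0.38 ± 0.04 for YAP/TAZ siRNA minus 2i control (1.30-fold).

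Krt19, a type I keratin that lacks most of the tail domain found in its relatives, lies on chromosome 11 and differed less than Krt8 and Krt18 in all 3 comparisons. With YAP/TAZ siRNA the values were 5.73, 5.85, 5.84 and 5.87 for mix 1 and 5.87, 5.99, 5.75 and 5.82 for mix 2. In PD-only control they were 10.54, 10.59, 10.34 and 10.39 for siRNA 1 and 10.52, 10.46 and 10.48 for siRNA 2. In 2i control they were 5.47, 5.73, 5.46 and 5.67 for siRNA 1 and 5.64, 5.69 and 5.56 for siRNA 2. PD-only control stood apart from both other arms, and the lowest YAP/TAZ siRNA array had the same value as the highest 2i control array. The differences were -4.64 ± 0.05 (24.9-fold), 4.87 ± 0.05 (29.2-fold) and 0.23 ± 0.05 (1.18-fold), for YAP/TAZ siRNA minus PD-only control, PD-only control minus 2i control and YAP/TAZ siRNA minus 2i control.

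Krt7, the second type II keratin, had the largest spread of the 4 between the arrays of each arm. With YAP/TAZ siRNA its values were 4.52, 4.44, 4.73 and 4.84 for mix 1 and 4.65, 4.77, 4.79 and 4.83 for mix 2. In PD-only control they were 8.9, 9.09, 8.66 and 9.01 for siRNA 1 and 9.13, 9.23 and 9.04 for siRNA 2. In 2i control they were 4.41, 4.65, 4.67 and 4.37 for siRNA 1 and 4.5, 4.43 and 4.25 for siRNA 2. PD-only control stood apart, while the YAP/TAZ siRNA and 2i control arrays overlapped. The differences were -4.33 ± 0.07 (20.1-fold), 4.57 ± 0.08 (23.7-fold) and 0.24 ± 0.07 (1.18-fold), in the same order of comparisons. In the 2 arms where the keratins were low, between 20.0% and 28.7% of genes had a value at or below Krt7. For Krt19 this share was between 37.1% and 43.6%. Background compresses log2 differences at such values, and the arrays carry no detection call, so the folds of Krt7 and Krt19 may understate the change in mRNA. How far each fold was compressed is not known, also for Krt8 and Krt18.

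**Figure D1:**
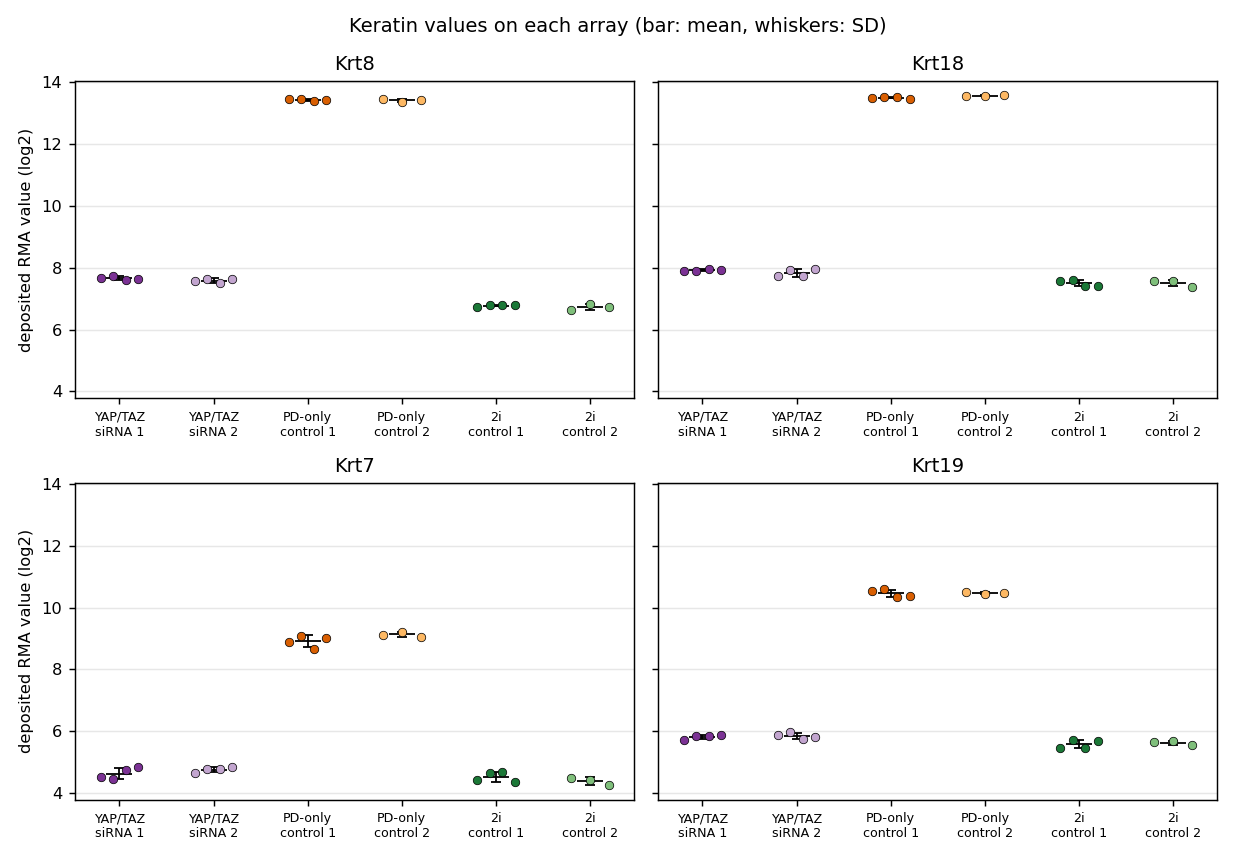
Deposited log2 values (vertical axis) of Krt8, Krt18, Krt7 and Krt19 on each of the 22 arrays, in 6 groups of medium and siRNA (horizontal axis), with the group mean as a bar and the SD as whiskers. The PD-only control arrays lie at 13.37 to 13.58 for Krt8 and Krt18, 8.66 to 9.23 for Krt7 and 10.34 to 10.59 for Krt19, above all arrays of both other arms; heights cannot be compared between genes, which have different probes.

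The members can be set against all genes, though their choice used these contrasts and nothing is read from it. The PD-only control arrays did not overlap the YAP/TAZ siRNA arrays for any of the 4 keratins, and 19.3% of all genes were lower with YAP/TAZ siRNA without overlap. They did not overlap the 2i control arrays either, and 19.0% of all genes were higher in PD-only control without overlap. A difference of 4-fold or more, which all 4 keratins showed, was found for 1.41% of genes in the first comparison and 1.31% in the second. Ordered from the lowest difference between YAP/TAZ siRNA and PD-only control, Krt8 was number 5 of 18193 genes, Krt18 number 7, Krt19 number 21 and Krt7 number 32. Ordered from the highest difference between PD-only control and 2i control, they were number 4, 7, 20 and 29. Both comparisons share the PD-only control arrays. The lower edge of the group was Krt7, and the first keratin outside it was Krt20, with -0.88 ± 0.09 and 0.83 ± 0.09 in these comparisons. Members with YAP/TAZ siRNA and 2i control arrays that did not overlap were Krt8 and Krt18, and 14.9% of all genes were higher with YAP/TAZ siRNA without overlap.

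Of the 4 genes, Krt8 was the only one with further probe sets carrying its symbol alone. The other 2 Krt8 probe sets gave -5.87 and -5.59 for YAP/TAZ siRNA minus PD-only control, 6.66 and 6.32 for PD-only control minus 2i control, and 0.79 and 0.73 for YAP/TAZ siRNA minus 2i control (differences of arm means). Their names mark them as open to cross-hybridisation, unlike the probe set used. The order of the arms was the same for all 3. With the Actb difference entered as a covariate, the differences between YAP/TAZ siRNA and PD-only control were -5.81 for Krt8, -5.51 for Krt18, -4.59 for Krt19 and -4.16 for Krt7, and those between PD-only control and 2i control were 6.68, 5.89, 4.82 and 4.40. The largest shift from the values without the covariate was 0.17, that of Krt7.

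The choice of the genes did not use the difference between the 2 siRNAs of an arm, so this difference was tested. None of the 12 tests (4 genes in 3 arms) passed limma's adjusted p of 0.05, computed over all 18193 genes. For mix 1 minus mix 2 of the YAP/TAZ siRNAs, the differences were 0.08 ± 0.04 for Krt8, 0.09 ± 0.06 for Krt18, -0.13 ± 0.10 for Krt7 and -0.04 ± 0.07 for Krt19 (SE, n = 4 arrays each; limma's adjusted p = 1.0 for all 4). The 95% intervals reached from -0.016 to 0.166 for Krt8, -0.03 to 0.20 for Krt18, -0.33 to 0.08 for Krt7 and -0.18 to 0.11 for Krt19, which leaves room for differences of these sizes between the mixes. The largest difference between control siRNAs was that of Krt7 in PD-only medium, siRNA 1 minus siRNA 2, at -0.22 ± 0.11 (limma's unadjusted p = 0.0537, adjusted p = 1.0). Its 95% interval was -0.44 to 0.0038. Over the other control siRNA differences the adjusted p ranged from 0.81 to 1.0. No gene passed in any of these comparisons (0.0% of all genes each), while 649 genes for the YAP/TAZ mixes, 769 for the control siRNAs in PD-only medium and 1450 for those in 2i had an unadjusted p under 0.05.

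The other keratin genes did not share the pattern of the 4 to a like extent. On the arrays 44 more genes with a keratin symbol were measured, 23 on chromosome 11 and 21 on chromosome 15, and none differed by 2-fold or more in any of the 3 comparisons. With YAP/TAZ siRNA against PD-only control 8 were higher and 4 lower by limma's adjusted p, or 27.3%, where 61.8% of all genes passed, 35.5% higher and 26.3% lower. In PD-only control against 2i control 5 were higher and 3 lower, or 18.2%, against 58.0% of all genes, 26.7% higher and 31.3% lower. With YAP/TAZ siRNA against 2i control 8 were higher and 1 lower, or 20.5%, against 48.3% of all genes, 25.5% higher and 22.8% lower. With the Actb covariate the counts were 3 higher and 2 lower in the first comparison and 3 higher and 1 lower in the second. In every arm 41 of the 44 had a mean below the median of all genes (6.64). The 3 that did not were Krt10, Krt42 and Krt81.

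Krt20, a keratin of intestinal and urothelial surface cells, had the largest difference among the 44. Its log2 values ran from 4.26 to 4.63 with YAP/TAZ siRNA (median 4.40), from 5.06 to 5.6 in PD-only control (median 5.34) and from 4.11 to 4.83 in 2i control (median 4.48). It fell by 0.88 ± 0.09 with YAP/TAZ siRNA (limma's adjusted p = 2.71e-08), and was higher in PD-only control than in 2i control by 0.83 ± 0.09 (adjusted p = 1.43e-07). Krt17, a keratin of stressed and appendage epithelia, fell by 0.37 ± 0.05 with YAP/TAZ siRNA (adjusted p = 1.05e-06) and was higher in PD-only control than in 2i control by 0.51 ± 0.05 (adjusted p = 1.92e-08). Both genes were thus highest in the arm where Krt7, Krt8, Krt18 and Krt19 were highest, at values that stayed dim. Most of the other keratins called with YAP/TAZ siRNA against PD-only control went the other way (8 higher, 4 lower). Among them Krt222 rose by 0.54 ± 0.09 (limma's adjusted p = 1.34e-05). It did not pass between PD-only control and 2i control (adjusted p = 0.0693). The keratins of stratified epithelia Krt5 and Krt14, a type II and type I pair, differed by -0.04 ± 0.05 and 0.14 ± 0.07 with YAP/TAZ siRNA and did not pass (adjusted p = 0.512 and 0.0771).

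**Figure D2:**
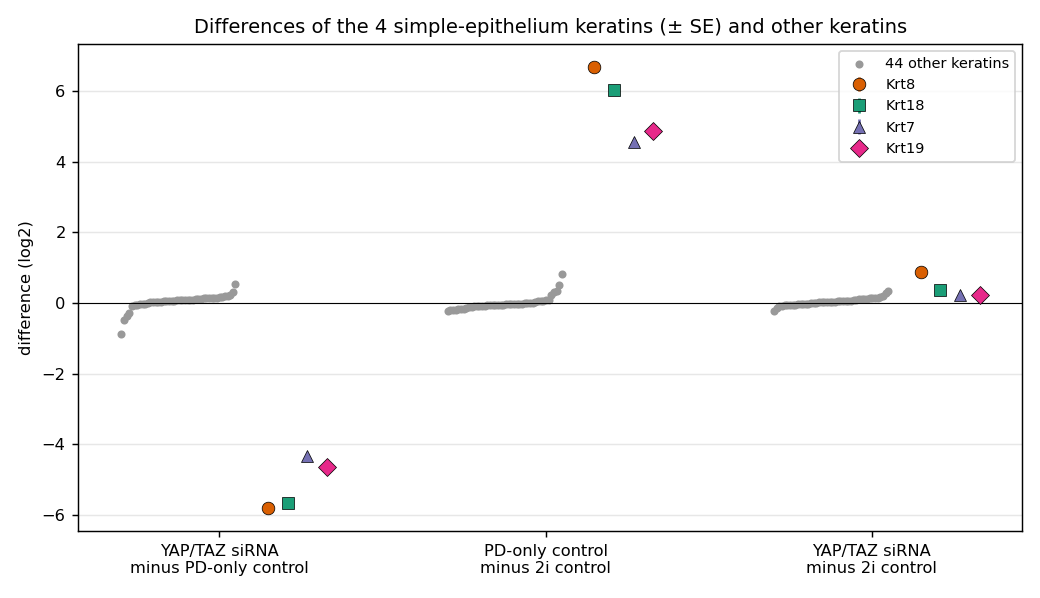
Differences on the log2 scale (vertical axis) in 3 comparisons of arms (horizontal axis) for Krt8, Krt18, Krt7 and Krt19 (coloured, with the SE of the model, smaller than the symbols) and for 44 other keratin genes (grey, sorted by value). The grey points lie between -0.88 and 0.83, while the coloured points of the first and second comparisons lie beyond 4 in size.

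The genes next to the 4 keratins on the chromosome were read from the RefSeq gene order, taking 3 measured genes on each side. Krt8 and Krt18 are each other's nearest measured neighbours. Beyond this pair, Krt78 differed by 0.17 ± 0.05 and Krt79 by -0.28 ± 0.08 between YAP/TAZ siRNA and PD-only control on one side. On the other side, Eif4b, a translation initiation factor gene, differed by 0.11 ± 0.02 and Tns2, a focal adhesion protein gene, by -0.53 ± 0.08. Next to Krt7, Krt80 and Krt88 differed by 0.03 ± 0.06 and 0.07 ± 0.05, and next to Krt19, Krt15 and Krt14 by 0.06 ± 0.05 and 0.14 ± 0.07. Of these, Krt78, Krt79, Eif4b and Tns2 passed limma's test (adjusted p = 0.00281, 0.00344, 0.000228 and 4e-06); with the Actb covariate, which was run for the listed genes and not for Eif4b and Tns2, Krt78 passed and Krt79 did not. Over all the measured neighbours other than the 4 keratins themselves, the differences ran from -0.53 (Tns2) to 0.44 (Nr4a1).

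The genes whose values over the 22 arrays lay closest to those of each keratin were found by setting every gene to 0 at its mean in PD-only control and averaging the absolute difference per array. For Krt8 the closest non-members were S100a6 (a calcium-binding protein; 0.16), Acta1 (skeletal actin; 0.21) and Tagln (transgelin, an actin-binding protein; 0.31). For Krt18 they were Pmp22 (a membrane protein of myelin and epithelia; 0.15), Acta2 (smooth muscle actin; 0.18) and Thbs1 (thrombospondin 1, a matrix glycoprotein; 0.22). For Krt19 they were Samd4 (an RNA-binding protein; 0.14), Tgm2 (transglutaminase 2, which crosslinks proteins; 0.14) and Cnn1 (calponin 1, an actin-binding protein; 0.16). For Krt7 they were Col5a2 (a collagen V chain; 0.13), Socs3 (a feedback inhibitor of cytokine signalling; 0.13) and Gbp2b (a guanylate-binding protein; 0.18). All values are mean absolute log2 differences per array. Krt8 and Krt18 were 0.27 apart, and Krt18 ranked number 3 for Krt8 while Krt8 ranked number 5 for Krt18. Krt7 and Krt19 were 0.26 apart and each ranked number 14 for the other.

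**Figure D3:**
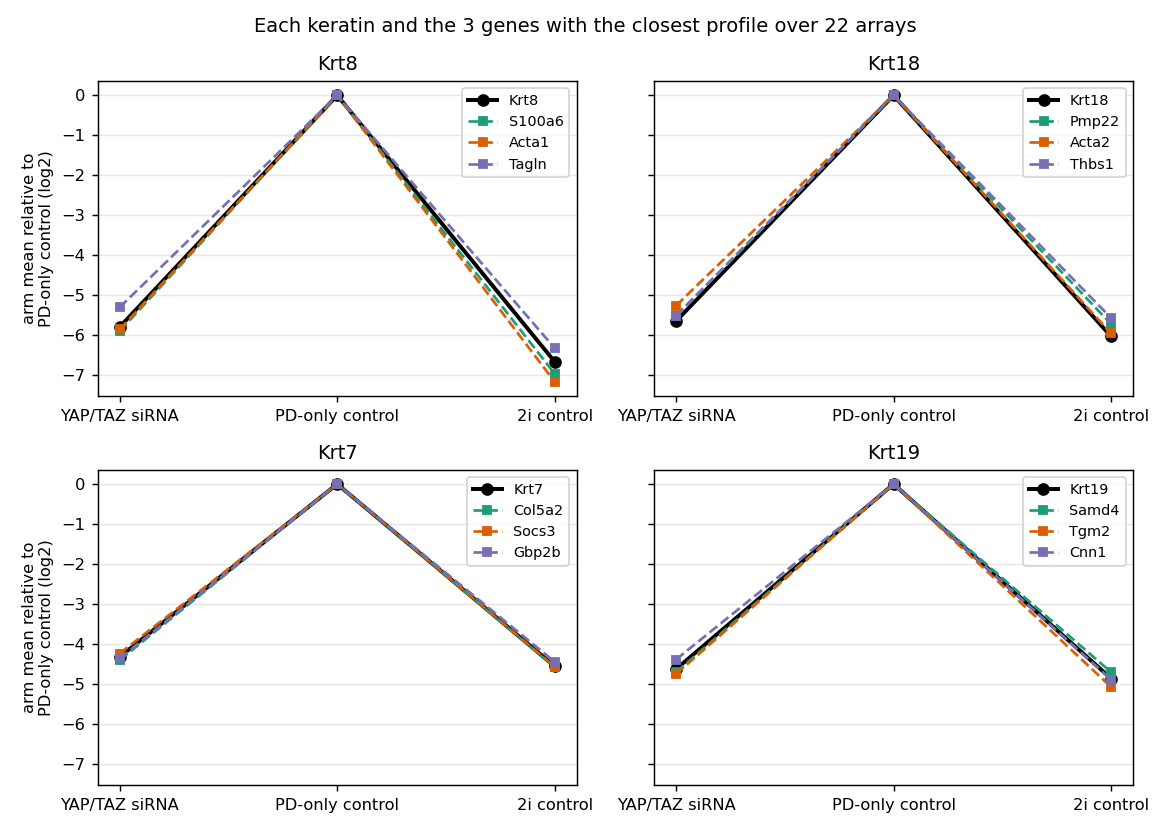
Arm means relative to PD-only control on the log2 scale (vertical axis) in YAP/TAZ siRNA, PD-only control and 2i control (horizontal axis), for each keratin (black) and the 3 non-member genes with the smallest mean absolute difference from it over 22 arrays (dashed). All lines have their peak in PD-only control, and the 2i control end of Krt8 lies below its YAP/TAZ siRNA end, at -5.80.

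Proteins that tie keratin filaments to desmosomes and to each other moved in part with the keratins. Of 13 measured genes, 10 fell with YAP/TAZ siRNA (5 at least 2-fold) and none rose (limma's adjusted p of 7.11e-07 or less for each), where 26.3% of all genes fell. The median was -0.58, against 0.06 for all genes. In PD-only control against 2i control 9 rose, 5 by 2-fold or more, and 2 fell (median 0.41, against -0.04), where 26.7% of all genes rose. The same calls held for these genes with the Actb covariate. This list and those below were chosen with earlier results of these data known, so their counts beside all genes are descriptive.

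Dsp, the desmoplakin that links keratins to the desmosome, had log2 values of 8.43 to 8.77 with YAP/TAZ siRNA (median 8.55), 10.54 to 10.65 in PD-only control (median 10.62) and 6.95 to 7.29 in 2i control (median 7.09). The 3 arms did not overlap, in the same order as for Krt8. Dsp fell by 2.05 ± 0.05 with YAP/TAZ siRNA (adjusted p = 9.07e-19), rose by 3.50 ± 0.05 in PD-only control against 2i control (adjusted p = 3.33e-22), and was higher with YAP/TAZ siRNA than in 2i control by 1.45 ± 0.05 (adjusted p = 1.46e-15). Dsc2, a desmosomal cadherin, fell by 3.60 ± 0.07 with YAP/TAZ siRNA and did not pass between YAP/TAZ siRNA and 2i control (-0.05 ± 0.07, adjusted p = 0.576). Eppk1 (epiplakin) also fell (-2.51 ± 0.04), as did Pkp2 (plakophilin 2; -1.73 ± 0.03) and Plec (plectin, a linker of filaments; -1.54 ± 0.05). The plakophilins Pkp3 and Pkp4 also fell (-0.65 ± 0.08 and -0.31 ± 0.02). Dsg2 and Jup differed from these. Dsg2, the partner cadherin of Dsc2, was lower in PD-only control than in 2i control by 0.88 ± 0.03 (adjusted p = 1.72e-15) and fell by a further 0.24 ± 0.03 with YAP/TAZ siRNA. Jup (plakoglobin) differed by -0.01 ± 0.04 with YAP/TAZ siRNA (adjusted p = 0.859).

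Genes of simple epithelia other than keratins showed a like split. Of 20 measured genes, 16 fell with YAP/TAZ siRNA, 6 by 2-fold or more, and 2 rose, where 26.3% of all genes fell and 35.5% rose (median -0.77, against 0.06 for all genes). In PD-only control against 2i control 14 rose, 6 by 2-fold or more, and 4 fell, where 26.7% of all genes rose and 31.3% fell (median 0.40, against -0.04). With YAP/TAZ siRNA against 2i control, 4 were higher and 10 lower, where 25.5% of all genes were higher and 22.8% lower. Lgals3 rose by 1.46 ± 0.03 in PD-only control against 2i control but did not pass with YAP/TAZ siRNA against PD-only control (-0.05 ± 0.03, limma's adjusted p = 0.149). Cldn7 (a tight junction claudin) fell by 3.20 ± 0.04 with YAP/TAZ siRNA (limma's adjusted p = 1.53e-22), and Esrp1 (an epithelial splicing factor) fell by 3.04 ± 0.06 (adjusted p = 2.21e-19). The others at 2-fold or more were Cldn6 (-2.38 ± 0.06), Cgn (cingulin; -1.94 ± 0.07), Epcam (an epithelial adhesion molecule; -1.82 ± 0.03) and Spint2 (a protease inhibitor; -1.06 ± 0.02). Esrp1 values ran from 6.74 to 7.05 with YAP/TAZ siRNA, from 9.89 to 10.01 in PD-only control and from 5.71 to 6.18 in 2i control, with no overlap. Cdh1 (E-cadherin), which ES cells make in every state, was within 0.22 in all comparisons: it fell by 0.07 ± 0.03 with YAP/TAZ siRNA (adjusted p = 0.0374, and 0.194 with the Actb covariate). Ocln (occludin) fell by 0.89 ± 0.07 with YAP/TAZ siRNA and was lower in PD-only control than in 2i control by 0.40 ± 0.07. Elf3, an epithelial Ets factor, rose by 0.63 ± 0.03 with YAP/TAZ siRNA. With the Actb covariate 15 of the 20 fell and 1 rose in the first comparison, and 13 rose and 2 fell in the second.

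**Figure D4:**
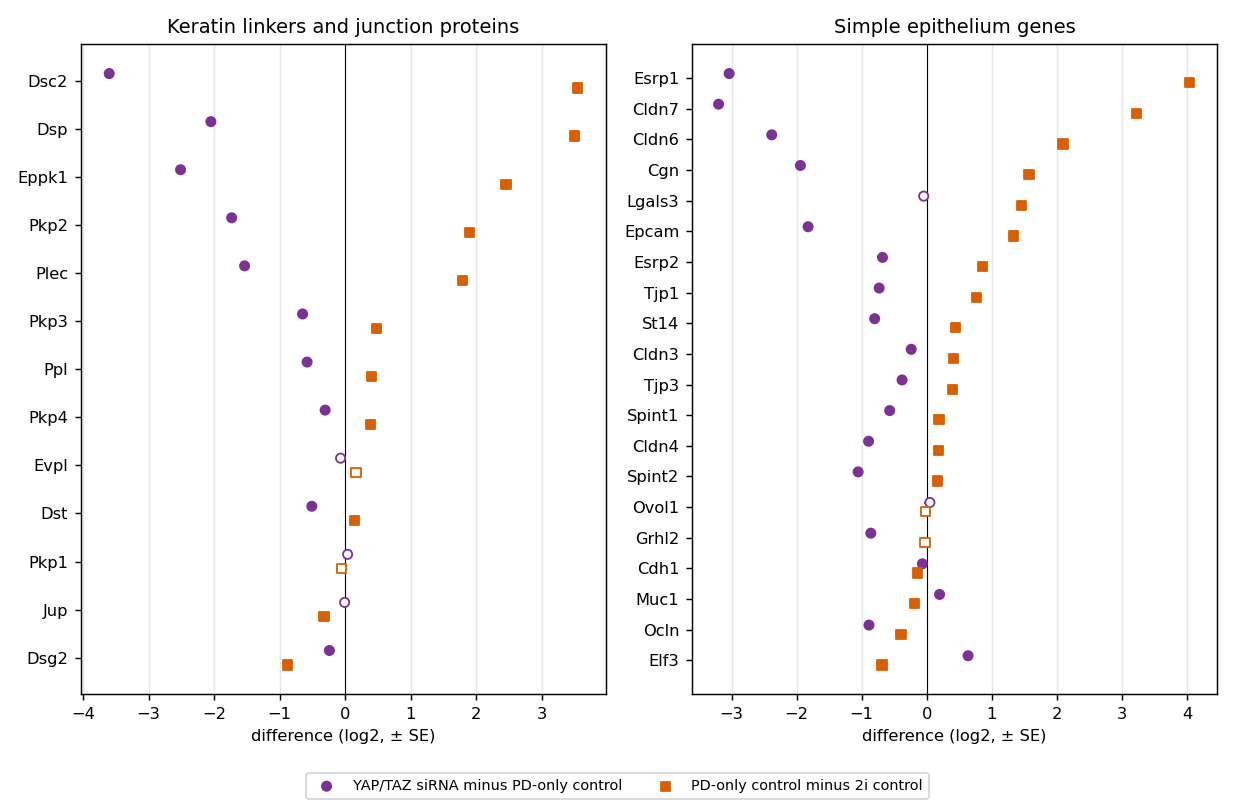
Log2 differences with SE (horizontal axis) of 13 keratin linker and junction genes and 20 simple epithelium genes (vertical axis), for YAP/TAZ siRNA minus PD-only control (circles) and PD-only control minus 2i control (squares); filled symbols passed limma's adjusted p of 0.05. Dsc2 (-3.60 and 3.55), Cldn7 (-3.20 and 3.22) and Esrp1 (-3.04 and 4.03) lie far from 0 on both sides, while Pkp1, Evpl, Ovol1 and Cdh1 lie near it.

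Other intermediate filament genes went both ways. Of 12 measured, 5 fell and 5 rose with YAP/TAZ siRNA (4 rose with the Actb covariate), where 61.8% of all genes passed. In PD-only control against 2i control 6 rose and 3 fell (5 and 2 with the covariate), where 58.0% of all genes passed. Lmna, the lamin A/C of the nuclear envelope, fell by 3.17 ± 0.05 with YAP/TAZ siRNA (limma's adjusted p = 2.4e-21) and rose by 3.52 ± 0.05 in PD-only control against 2i control (adjusted p = 8.6e-22). Vim (vimentin, the mesenchymal filament) fell by 0.65 ± 0.04 and rose by 1.61 ± 0.04 in these comparisons. The neurofilament genes Nefl and Nefm moved the other way: they rose by 1.93 ± 0.03 and 1.67 ± 0.04 with YAP/TAZ siRNA, and both fell in PD-only control against 2i control, Nefl with a difference of -2.54 ± 0.04. Of 11 keratin binding and turnover genes 5 fell and 4 rose with YAP/TAZ siRNA, where 26.3% of all genes fell and 35.5% rose. Fam83h, which brings casein kinase 1 to keratins in human cells, had the largest fall (-2.31 ± 0.07, adjusted p = 1.5e-16).

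AP-1 and Ets factors bind an enhancer in the first intron of the human KRT18 gene, and Sp1 acts on it too. Of 11 genes for such factors 8 fell with YAP/TAZ siRNA, 6 by 2-fold or more, and 1 rose, where 26.3% of all genes fell and 35.5% rose (median -1.16, against 0.06). In PD-only control against 2i control 8 rose and 2 fell, where 26.7% of all genes rose and 31.3% fell (median 1.13, against -0.04), and with the Actb covariate 8 rose and none fell. Fosl2 had values of 3.69 to 4.14 with YAP/TAZ siRNA, 8.38 to 8.93 in PD-only control and 3.53 to 3.94 in 2i control. It fell by 4.73 ± 0.09 with YAP/TAZ siRNA (limma's adjusted p = 2.32e-20), and Fos (-3.52 ± 0.09), Jun (-3.41 ± 0.07) and Ets1 (-2.55 ± 0.06) also fell. Fosb and Fosl1 did not pass (-0.19 ± 0.09 and 0.10 ± 0.07, adjusted p = 0.0759 and 0.211), Sp1 fell by 0.19 ± 0.03 and Sp3 rose by 0.27 ± 0.03. Whether any of these factors acts on the keratin genes in these cells was not tested.

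Markers of other cell types that make or lie beside simple epithelium moved in part with the keratins, and their part in the keratin values was not tested. In bulk RNA a change in the share of cells of a type cannot be told apart from a change per cell. The counts below are for YAP/TAZ siRNA against PD-only control, where 26.3% of all genes fell and 35.5% rose. Sums are of linear signal and lean on the brightest marker of a list, so they are also given without it.

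The sum of 12 trophoblast markers ranged from 1788 to 2075 with YAP/TAZ siRNA, 1961 to 2049 in PD-only control and 1227 to 1268 in 2i control. Without Tfap2c, the brightest, it ranged from 852 to 912 with YAP/TAZ siRNA, 1329 to 1423 in PD-only control and 808 to 893 in 2i control. This sum still held Gata3, Plac1 and Ascl2, with log2 means of 8.03, 6.98 and 7.80 in PD-only control. With YAP/TAZ siRNA their means were 4.91, 4.32 and 6.94. The higher sum in PD-only control therefore need not hold for the other markers. Of the 12, 6 fell and 3 rose (3 and 2 with the Actb covariate). Gata3 (-3.13 ± 0.05) and Plac1 (-2.66 ± 0.10) had the largest falls, while Cdx2, a defining factor of trophectoderm, rose by 1.07 ± 0.07 and Elf5 had arm means of 3.54 to 3.65.

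The sum of 12 primitive and parietal endoderm markers ranged from 1331 to 1456 with YAP/TAZ siRNA, 3328 to 3589 in PD-only control and 1105 to 1171 in 2i control. Lamb1, a laminin chain of basement membranes, made up a median of 79.8% of the sum in PD-only control. Without it the sum ranged from 419 to 482 with YAP/TAZ siRNA, 681 to 707 in PD-only control and 406 to 445 in 2i control. This sum still held Dab2, which had the largest fall of the 12 (-3.57 ± 0.09). Its log2 values were 3.85 to 4.77 with YAP/TAZ siRNA, 7.83 to 8.15 in PD-only control and 4.71 to 5.15 in 2i control. The higher sum in PD-only control therefore need not hold for the other markers. Of the 12, 5 fell and 2 rose (4 and 1 with the Actb covariate), and 10 had a mean below the median of all genes in each arm. Among the endoderm transcription factors, Gata6 fell by 0.91 ± 0.09 (limma's adjusted p = 3.32e-08) and Foxa2 by 0.81 ± 0.10 (adjusted p = 3.4e-07). Gata4, Sox17 and Sox7 did not pass (0.11 ± 0.07, -0.02 ± 0.08 and 0.03 ± 0.06).

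The sum of 8 fibroblast markers ranged from 251 to 283 with YAP/TAZ siRNA, 1818 to 1994 in PD-only control and 215 to 261 in 2i control, and 6 fell and none rose, with and without the covariate. Without Col1a2, a collagen I chain, the sum ranged from 215 to 240 with YAP/TAZ siRNA, 997 to 1118 in PD-only control and 184 to 219 in 2i control. The sum of 4 mesothelium markers ranged from 198 to 220 with YAP/TAZ siRNA, 270 to 348 in PD-only control and 130 to 150 in 2i control. Of these, 3 fell (1 with the covariate) and none rose, and Wt1 had the largest fall (-2.12 ± 0.10). Without Lrrn4 the mesothelium sum ranged from 65 to 76 with YAP/TAZ siRNA, 129 to 186 in PD-only control and 59 to 71 in 2i control. This sum still held Wt1, with log2 values of 4.33 to 4.91, 6.23 to 6.97 and 4.02 to 4.41 in the same order of arms. Msln and Upk3b, the other markers in it, differed by -0.32 ± 0.08 and -0.31 ± 0.09 between YAP/TAZ siRNA and PD-only control. The higher sum in PD-only control therefore leans on Wt1.

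The sum of 6 markers of surface ectoderm and squamous epithelium ranged from 352 to 383 with YAP/TAZ siRNA, 322 to 354 in PD-only control and 517 to 579 in 2i control. Without Tfap2a it ranged from 221 to 243 with YAP/TAZ siRNA, 266 to 299 in PD-only control and 191 to 228 in 2i control. Of the 6, 1 fell (Sfn; -0.88 ± 0.08) and 1 rose (Tfap2a; 1.27 ± 0.05). Sfn was kept in the sum without Tfap2a, and the markers other than these did not pass in this comparison. Trp63, a defining factor of squamous epithelium, had arm means of 4.12 to 4.28. The sum of the 6 ES cell markers ranged from 37008 to 38646 with YAP/TAZ siRNA, 30202 to 31579 in PD-only control and 42577 to 45394 in 2i control. Without Sox2 it ranged from 28985 to 30223 with YAP/TAZ siRNA, 22559 to 23385 in PD-only control and 32699 to 34730 in 2i control. Of the 6, 5 rose and none fell (4 and none with the covariate, which Sox2 did not pass).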

How the data were processed

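RNA from 22 cultures was hybridised to Affymetrix mouse arrays, 1 culture per array. The authors deposited 1 table of log2 values for 45101 probe sets, made with RMA (background correction, quantile normalization and summary by probe set) per the submitters' processing notes; its version and a genome build are not named there. RMA gives no detection call and compresses differences against dim spots. The values ran from 2.09 to 14.91, with no missing value and no identical pair of arrays. Of the probe sets, 34945 carried 1 gene symbol in the platform annotation and 932 carried several, which were not used. For each of 18193 genes the probe set with the highest mean was kept.

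limma 3.58.1 (R 4.3.3) fitted 1 linear model with a mean for each of 6 groups, given by medium and siRNA, and moderated the variances with eBayes, with p-values adjusted by Benjamini-Hochberg over all genes and a threshold of 0.05. An arm is the mean of its 2 siRNA groups, so its difference can depart slightly from that of arm means over arrays. "Rose", "fell" and "passed" refer to this test. Precision is set by how many arrays each arm has. The fit was tested on simulated data.

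The members and lists were chosen with earlier results of these data known. The genes named are the 4 keratins, Yap1 and Wwtr1, the 3 closest profiles per keratin, the chromosomal neighbours, up to 6 called genes of largest difference per list, and list genes above the median of all genes. Pkp3, Krt5, Krt14, Fosb, Fosl1, Elf5, Gata4, Sox17, Sox7, Trp63 and genes named only as lying near 0 fall outside this rule and were chosen after their values were seen. Listed genes without a value are not reported here. Sums of marker lists without their brightest gene, and the genes left out of them, were added after seeing the data. Replicate letters showed little pairing of arrays, and the model used no replicate block. Over 51 pairs of arrays with the same letter the correlation of deviations from the group mean ran from -0.077 to 0.124, and 2 were over 0.1.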

Additional observations from a re-analysis of the deposited data

How the results depend on the processing

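The 3 differences between arms kept their direction for all 4 keratins in every alternative run: leaving out each array, 1 siRNA number alone, the arrays of the compared arms alone, further quantile normalization, other probe set rules, no dim genes, another eBayes setting, the replicate block and the Actb covariate. Dropping dim genes left no value for Krt7. YAP/TAZ siRNA minus PD-only control ranged from -5.83 to -5.75 for Krt8, -5.72 to -5.51 for Krt18, -4.66 to -4.59 for Krt19 and -4.37 to -4.16 for Krt7. PD-only control minus 2i control was 4.39 for Krt7 with siRNA number 1 alone and 4.74 with number 2 alone. The mean of all Krt8 probe sets gave 6.55 for PD-only control minus 2i control and 0.80 for YAP/TAZ siRNA minus 2i control. Between control siRNAs, eBayes with trend and robust called 2 genes in 2i and 1 in PD-only medium, where the model used called 0; the cause was not tested. Genes called numbered 11250 for YAP/TAZ siRNA minus PD-only control, 10559 for PD-only control minus 2i control and 8791 for YAP/TAZ siRNA minus 2i control. With the replicate block they were 11261, 10542 and 8714, and 0 between siRNAs in each arm. With the block 85 list genes passed in the first comparison, where 87 passed without it, and Cdh1 was among those lost (limma's adjusted p = 0.0538). Of the 22 arrays, 9 correlated best with an array of their own letter. The number to be had without any pairing was not computed, so nothing is read from this count. The Actb covariate gave 8204, 7796 and 8880 genes.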
